A study of Oryza sativa with 4 samples.

Results

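The comparison described here is that of the chilling-tolerant rice line DC90 after 36 h of chilling with the same line before chilling (0 h). Its members are the identifiers beginning with BGIOSGA that had an FPKM of at least 1 in at least 1 of the DC90 libraries. FPKM counts the fragments of a gene relative to its length in kilobases and to the library's size. There were 23341 such members, or 57.3% of the 40745 BGIOSGA identifiers in a table of 88509 identifiers. Of the BGIOSGA identifiers left out, 11973 were listed at 0 in both DC90 libraries and 5431 lay above 0 but below 1. At the limit, BGIOSGA014289 with 1.0001 FPKM at 0 h and 0.237 at 36 h was the lowest member, and BGIOSGA037378 with 0.9997 and 0.527 was the highest identifier outside.

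DC90 is a chromosome substitution line, in which donor segments replace those of a recurrent parent. That parent, 9311 (also named YD6), is chilling-sensitive and was sampled in the same way, untreated and after 36 h of chilling. All 4 groups are whole seedlings at the 3-leaf stage, each sequenced as 1 library from mixed RNA of 3 replicates. No spread between plants can therefore be measured, no test was run, and "higher" and "lower" compare these libraries alone. Unchilled seedlings at 36 h are not part of the comparison, so chilling, seedling age and hour of the day cannot be told apart. In whole seedlings, fewer cells of a type and less RNA per cell cannot be told apart either.

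In rice, a plant of warm climates, chilling is known to stiffen membranes, trigger calcium signalling and slow photosynthesis and growth. Transcription factors of the CBF/DREB family are a well-known early branch of the response, and they switch on genes for protective proteins and for sugar and lipid metabolism. The identifiers of the table are not paired with gene names in the sources used here, so the members are described by identifier, level, length and place in the numbering, not by function, and organ markers could not be read.

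The DC90 libraries were of similar depth, with 11709642 reads at 0 h and 10580163 at 36 h as recovered from the steps of the FPKM values. The corresponding totals in 9311 were 11800685 and 10901043. The median member had 158 reads at 0 h and 143 at 36 h, and 2084 members had fewer than 20 reads in both libraries. The median level was 12.7 FPKM at 0 h and 13.1 at 36 h. FPKM of at least 1 was reached at both times by 20549 members, at 36 h alone by 1246 and at 0 h alone by 1546.

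About 3 in 10 members differed at least 2-fold between the times, in nearly equal numbers up and down. The measure is log2((FPKM + 1)/(FPKM + 1)), 36 h over 0 h, and a member is called at 1 or more in size. By this rule 3374 members, 14.5%, were higher at 36 h and 3575 members, 15.3%, were lower, together 29.8%. Since the members are all the identifiers that entered the comparison, these shares are themselves the background. The middle of the members moved little: the median log2 ratio was 0.01, the quartiles were -0.64 and 0.63, and 5% of members lay below -1.74 and 5% above 1.70. Within 1.5-fold in either direction were 10868 members, 46.6%. Rescaling both libraries to equal FPKM sums added 0.12 to all log2 ratios before the pseudocount and made higher members 56.1% of those called, against 48.6% as deposited, so the more frequent direction was not the same under both scalings.

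**Figure D1:**
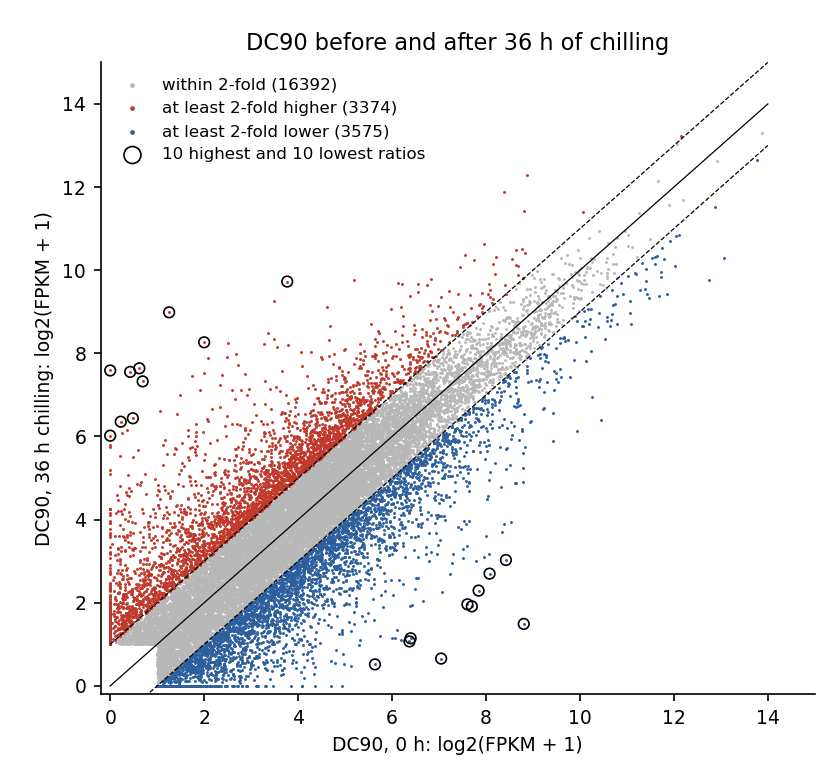
Level of each of the 23341 members in DC90 at 0 h (horizontal axis) and after 36 h of chilling (vertical axis), both as log2(FPKM + 1), with 1 point per identifier. The solid line marks equal levels and the dashed lines 2-fold differences. The 3374 red points lie at least 2-fold above, the 3575 blue points at least 2-fold below, and circles mark the 10 highest and 10 lowest ratios among identifiers whose higher library reached an FPKM of 10.

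Near the 2-fold limit the call rests on small differences. BGIOSGA001156, listed at 0 before and at 1.0002 FPKM after chilling on 4 reads, was just inside on the higher side, and BGIOSGA004720 at 1.54 and 4.08 was just outside. On the lower side BGIOSGA004212 at 81.5 and 40.2 was just inside and BGIOSGA018396 at 18.6 and 8.80 just outside. Counting error alone left most calls in place: the 95% counting interval of the plain FPKM ratio lay wholly above 2-fold for 2384 of the 3374 higher members and wholly beyond 2-fold for 2367 of the 3575 lower members. Fewer than 20 reads in the higher library stood behind 274 of the higher and 338 of the lower members. Such intervals cover the counting of reads and not the differences between plants.

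Among members called as deposited, differences under 8-fold were more often decreases, and larger ones more often increases. From 2-fold to under 4-fold there were 2607 higher and 2758 lower members, and from 4-fold to under 8-fold 531 and 653. Above that the order turned, with 146 higher and 116 lower members from 8-fold to under 16-fold, 58 and 37 up to 32-fold, 24 and 9 up to 64-fold and 8 and 2 beyond. At 4-fold or more the share of all members was 3.29% higher and 3.5% lower, and at 8-fold or more 1.01% higher and 0.703% lower. The excess of decreases depends on scaling and filter. At 2-fold or more, equal FPKM sums gave 3969 higher and 3101 lower members, and an FPKM of at least 5 gave 2819 and 2781. The size classes were not recounted under these settings. The starting levels differed with the size of the change, which in part follows from the rule. With 1 added to both values, a large decrease needs a high level at 0 h and a large increase a high level at 36 h. Members raised 8-fold to 16-fold had a median of 1.86 FPKM at 0 h and 27.8 at 36 h, and those raised 32-fold to 64-fold went from a median of 1.74 to 112. Members lowered 8-fold to 16-fold went from a median of 34.8 to 2.42, and those lowered 32-fold to 64-fold from 194 to 2.77.

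**Figure D2:**
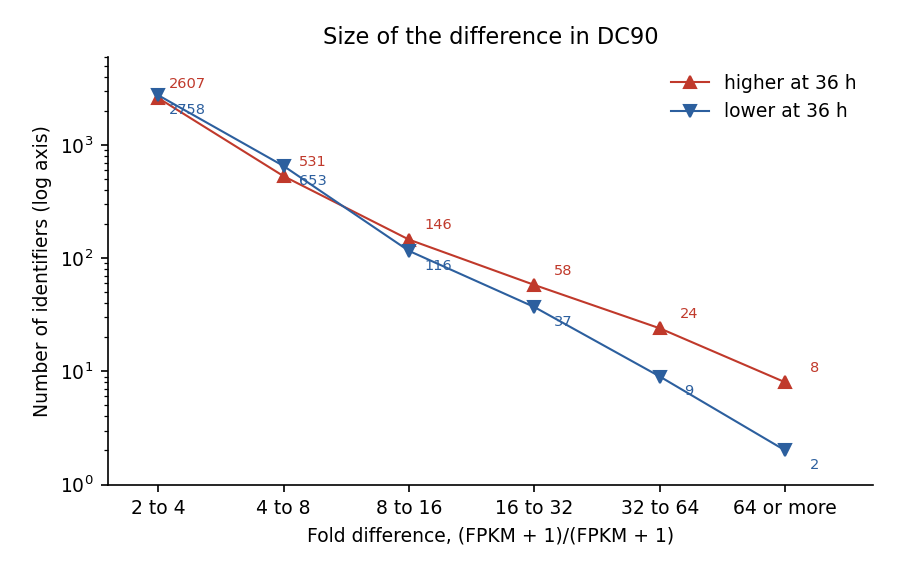
Number of DC90 members (log axis) by size of the difference between 36 h and 0 h, in classes of (FPKM + 1)/(FPKM + 1), with upward triangles for members higher at 36 h and downward triangles for members lower. With the values as deposited, lower members are more numerous from 2-fold to 8-fold (2758 against 2607 and 653 against 531). Higher members are more numerous beyond it, ending at 8 against 2 for 64-fold or more.

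The 10 highest ratios belonged to transcripts that stood at or below 12.6 FPKM at 0 h, all but BGIOSGA025849 at 3.27 FPKM or less in both lines, and between 63.9 and 847 FPKM at 36 h in DC90. BGIOSGA007022 was at 1.39 FPKM before and 507 after chilling in DC90, and at 1.12 and 465 in 9311. BGIOSGA007575 had 0.342 FPKM, from 5 reads, before chilling and 187 after it, 547-fold more, where read counting alone allows 234-fold to 1685-fold. In 9311 the same identifier stood at 0.34 and 149. BGIOSGA000971, the longest of the 10 with a recovered coding length of 3786 bases, was at 3.00 FPKM from 133 reads before and 307 from 12287 reads after chilling, 102-fold higher with an interval of 86.2 to 122. It was at 3.27 and 588 in 9311. BGIOSGA025849 reached the highest level of the 10, going from 12.6 FPKM to 847, 67.1-fold higher with an interval of 57.3 to 79.1. The corresponding 9311 values were 8.78 and 709. For each of these 4, both 36 h libraries lay far above both 0 h libraries.

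BGIOSGA015588 was at 0.615 FPKM before and 159 after chilling, 259-fold higher with an interval of 141 to 541, and at 0.305 and 240.1 in 9311. BGIOSGA005218 and BGIOSGA033524 rested on 2 reads and 1 read at 0 h, with 0.537 and 0.168 FPKM, and stood at 199 and 80.9 at 36 h. BGIOSGA032010 went from 0.397 FPKM on 3 reads to 85.7. In 9311 these 3 identifiers were at 1.87, 0.669 and 0.263 before and at 134, 114 and 77.4 after chilling. All 10 of the highest DC90 ratios were also more than 2-fold higher in 9311, where 16.1% of identifiers were at least 2-fold higher. Their log2 ratios ran from 5.55 to 8.49 in 9311 against 5.96 to 7.73 in DC90.

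Both of the remaining members of the top 10 were listed at 0 before chilling. BGIOSGA033960 had 0 reads at 0 h and 802 reads at 36 h, or 191 FPKM, which is at least 295.87-fold higher when 0 h is set at 3 reads. In 9311 it went from 0.214 to 436. BGIOSGA027033 had 0 reads at 0 h and 373 at 36 h, or 63.9 FPKM, at least 137.6-fold higher on the same floor of 3 reads per library. It was listed at 0 in 9311 as well at 0 h and stood at 52.3 at 36 h.

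The 10 lowest ratios belonged to transcripts that were well expressed at 0 h, which so low a ratio requires. They stood between 48.7 and 446 FPKM at 0 h and were nearly gone at 36 h. BGIOSGA014277 had 446 FPKM before and 1.81 after chilling, and 306 and 5.27 in 9311. BGIOSGA004922 was at 131 FPKM from 1759 reads before and at 0.577 from 7 reads after chilling, with a counting interval of 109.96-fold to 566-fold lower. In 9311 it was at 83.9 and 0.40. BGIOSGA013669 was at 229 FPKM before and 3.90 after chilling, 58.6-fold less, with bounds of 39.6 and 90.9. It was at 273 and 1.51 in 9311, a larger difference than in DC90. For these 3, both 36 h libraries lay far below both 0 h libraries.

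BGIOSGA017768 was at 269 FPKM before and 5.50 after chilling, and at 166 and 10.2 in 9311. BGIOSGA004061 had 81.8 and 1.10, BGIOSGA003529 had 83.2 and 1.21, and BGIOSGA025937 had 48.7 and 0.432, with 3, 2 and 1 reads at 36 h. These 3 identifiers had recovered coding lengths of 258, 156 and 219 bases. The remaining 3 of the 10, BGIOSGA014273, BGIOSGA014274 and BGIOSGA014276, carry numbers next to BGIOSGA014277 and are described with it further on. In 9311 the log2 ratios of the 10 ran from -6.77 to -3.72, against -7.31 to -5.12 in DC90.

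Few members were off at one time and on at the other. An FPKM of at most 0.1 at 0 h and at least 5 at 36 h was found for 34 members, 0.146%, of which 29 had 0 reads at 0 h. Their median level at 36 h was 11.5 FPKM, and the highest was that of BGIOSGA033960. Next to BGIOSGA033960 and BGIOSGA027033 came BGIOSGA017342, with 0 reads before and 847 reads after chilling, or 54.9 FPKM, at least 312-fold higher when 0 h is set at 3 reads. It stood at 0.0581 and 53.9 in 9311. Without the floor, the counting intervals of the 3 began at 240.07-fold, 111.36-fold and 253.57-fold. By the same limits 14 of the 34 were off and then on in 9311, where 0.255% of identifiers were. At 36 h 32 of the 34 reached 5 FPKM in 9311, but the share of all members at that level there was not counted. In DC90, 18046 of the 23341 members reached 5 FPKM in at least 1 library, so that level alone is common.

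The opposite, at least 5 FPKM at 0 h and at most 0.1 at 36 h, was found for 23 members, 0.0985%, 21 of them with 0 reads at 36 h. Their median level at 0 h was 7.61 FPKM. BGIOSGA021955 had 29.7 FPKM from 122 reads before chilling and 0 after it, at least 36.7-fold lower when 36 h is set at 3 reads, and stood at 5.55 and 0.523 in 9311. BGIOSGA031783 had 24.9 FPKM from 169 reads and then 0, at least 50.9-fold lower, and stood at 24.9 and 0.317 in 9311. BGIOSGA031795 had 19.5 FPKM from 43 reads and then 0, at least 12.95-fold lower, and stood at 14.9 and 0.488 in 9311. Without the floor, the counting intervals of the 3 began at 29.4-fold, 40.9-fold and 10.09-fold lower. Of the 23, 8 met the same limits in 9311, where 0.123% of identifiers did. There 17 of the 23 stood at 5 FPKM or more at 0 h, and 1 stood above 1 FPKM at 36 h. The shares of all members at these levels in 9311 were not counted. Members switched off had a median recovered coding length of 279 bases, and members switched on one of 424.5, against 1032 for the median of all members. The limits favour short identifiers, since a given FPKM rests on fewer reads there and 0 reads are more easily reached by counting alone. In their higher library, members switched off had as few as 5 reads and members switched on as few as 13.

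At the upper end of expression, lower levels at 36 h prevailed. Among the 299 members with a mean of at least 500 FPKM over both libraries, 73 were lower and 24 higher. These are 24.4% and 8.03%, against 15.3% and 14.5% of all members, and the median log2 ratio was -0.32. The median recovered coding length of the 299 was 480 bases, within the shortest quartile of members, and level and length were not separated for this class. Between 20 and 100 FPKM the balance was the other way, with 1223 higher and 878 lower of 7346 members and a median of 0.13. Between 1 and 5 FPKM it was again on the lower side, with 661 higher and 973 lower of 5402 members. In 9311, 80 of the same 299 identifiers were lower and 26 higher, where 18.2% and 16.1% of identifiers were.

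The most abundant transcripts of 0 h held less of the total at 36 h. The 100 most abundant at 0 h made up 22.4% of the summed BGIOSGA FPKM at 0 h and 13.6% at 36 h. Of these, 55 were at least 2-fold lower and 1 was higher, in a group chosen by its level at 0 h. Among all members 15.3% were lower and 14.5% higher. The 100 most abundant at 36 h, chosen by their level then, made up 16.6% at 36 h and 17.97% at 0 h, with 20 higher and 20 lower. The lists shared 60 identifiers. At 1000 identifiers they shared 706, and the shares at their own times were 54.0% and 47.7%.

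Several of the most abundant members stood lower at 36 h, some of them many-fold. Ranks below are among all BGIOSGA identifiers of a library. BGIOSGA003922, the third most abundant at 0 h, was at 8547.5 FPKM before and 1251 after chilling, 6.83-fold lower, and ranked 44 at 36 h. It was at 8374 and 903 in 9311. BGIOSGA033513, with 6868 before and 874 after chilling, was 7.85-fold lower and went from rank 6 to rank 106, and stood at 7354 and 694 in 9311. BGIOSGA018498 had the largest loss in FPKM, from 13946 to 6394.5, which is 2.18-fold, and went from rank 2 to rank 4. In 9311 it went from 13635 to 7446, under the 2-fold limit on the log2 scale at -0.87 against -1.12 in DC90. BGIOSGA027483 was 2.56-fold lower, at 7494 and 2925, and stood at 6482 and 2369 in 9311.

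Other members of the top ranks stayed within 2-fold or were higher. BGIOSGA002954 ranked 1 at both times in DC90 although it was among the 5 largest losses, with 14986 FPKM before and 10133 after chilling, 1.48-fold lower, and was at 10982 and 8168 in 9311. BGIOSGA037257 was 1.23-fold lower at 7765 and 6310.4, and was at 7652 and 8146 in 9311. BGIOSGA037854 had the largest gain, from 4521 to 9670.2 FPKM, 2.14-fold higher, and rank 2 at 36 h after rank 8 at 0 h. It was at 3089 and 10295 in 9311. BGIOSGA013292 followed at 4305 and 8338, a log2 ratio of 0.95 that missed the 2-fold limit as deposited and passed it with equal FPKM sums. It stood at 3618 and 9198 in 9311.

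Beside these, 3 members that were already well expressed at 0 h moved to the top of the abundance order. BGIOSGA001812 was at 467 FPKM before and 5042 after chilling, 10.8-fold higher with an interval of 10.3 to 11.3, and went from rank 361 to rank 6. BGIOSGA001791 was at 331 and 3762, 11.4-fold higher, and went from rank 567 to rank 8. BGIOSGA014430 was at 447 and 2742, 6.13-fold higher, and went from rank 378 to rank 12. In 9311 they stood at 372, 724 and 364 before and at 4976, 5804 and 2886 after chilling. Their recovered coding lengths were 375, 282 and 360 bases.

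In all, the called members changed their part of the FPKM sum in both directions. Members at least 2-fold higher held 5.81% of the summed BGIOSGA FPKM at 0 h and 21.7% at 36 h. Members at least 2-fold lower held 29.2% at 0 h and 9.996% at 36 h. Members within 2-fold held 64.9% and 68.1%. Counted in recovered reads in place of FPKM, which weighs long transcripts more, the higher members held 7.24% and 24.3% and the lower ones 25.6% and 8.13%. That the shares shift in these directions follows from the rule, and their size is the description. The summed FPKM itself was 1149717 at 0 h and 1056377 at 36 h.

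**Figure D3:**
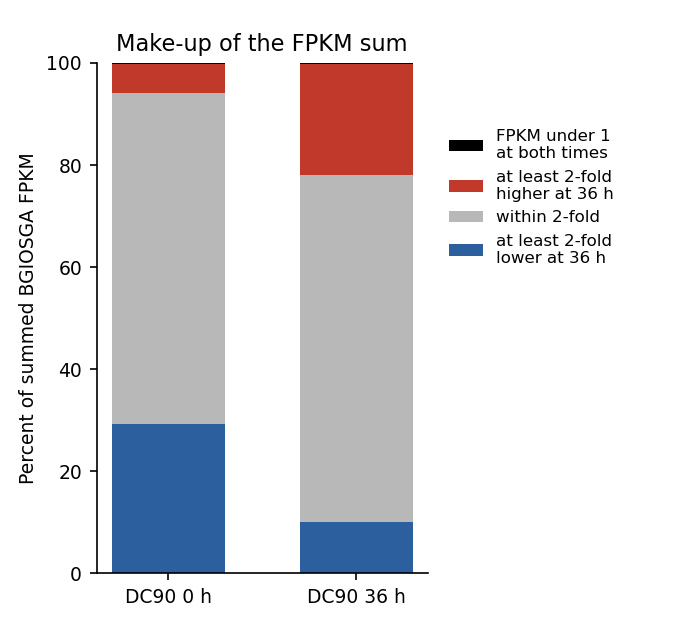
Stacked bars from 0 to 100% show the part of the summed BGIOSGA FPKM held by each class of identifiers in DC90 at 0 h and 36 h. Members lower at 36 h go from 29.2% to 9.996% and members higher at 36 h from 5.81% to 21.7%, while the class within 2-fold holds 64.9% and 68.1% and identifiers under 1 FPKM hold 0.126% and 0.131%.

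The share of lowered members depended on coding length, and that of raised members did not in the same way. The length is the one recovered from the FPKM steps. In the shortest quartile of members, up to 597 bases, 21.5% were lower and 14.3% higher at 36 h in DC90. From 599 to 1032 bases 16.9% were lower, from 1035 to 1569 bases 14.3%, and in the longest quartile, from 1572 bases, 8.54%. The share of higher members was 14.2%, 14.5% and 14.9% in these 3 quartiles. The median log2 ratio went from -0.16 in the shortest to 0.18 in the longest quartile. Among members that reached 100 reads in either library the lowered share went from 21.4% in the shortest to 8.72% in the longest quartile. The raised share went from 13.2% to 16.8% among them. Among members with a mean of 20 to 100 FPKM the lowered share went from 18.9% to 5.76%, and the raised share from 14.1% to 19.9%. The nearly equal raised shares thus hold for all members together and not for these 2 subsets.

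In 9311 the same members, where they reached 1 FPKM, gave a lowered share of 21.7% in the shortest and 13.3% in the longest quartile, and a raised share of 16.4% and 14.5%. The longest quartile thus had 8.54% lowered in DC90 against 13.3% in 9311, a difference between the lines that was not tested, with 1 library per line and time. Short members also had fewer reads, with a median of 82 in the shortest quartile and 364 in the longest. For each member the library with more of its reads was taken. In DC90 the contrast in lowered share was about as large among the members with 100 reads or more given above.

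**Figure D4:**
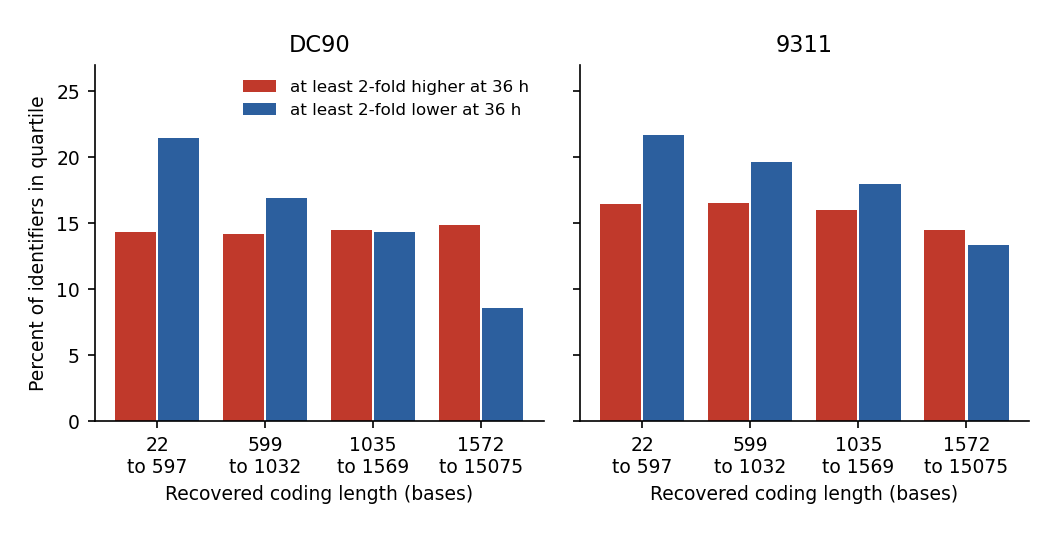
Percent of members at least 2-fold higher (red) and at least 2-fold lower (blue) at 36 h, by quartile of recovered coding length in bases, for DC90 (left) and for the same members in 9311 (right). In DC90 the blue bars go from 21.5% to 8.54% while the red bars stay between 14.2% and 14.9%, and in 9311 the blue bars go from 21.7% to 13.3%.

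The next member in the numbering was in most cases within 2-fold, after higher members (69.0%) as after lower ones (66.2%). Of the lower members 20.8% were followed by another lower member, against 15.3% lower among all members, and of the higher members 18.4% were followed by a higher one, against 14.5%. Runs of at least 4 neighbouring members called in 1 direction numbered 23 for higher and 36 for lower members. In the 38 blocks of 1000 identifier numbers with at least 400 members, the higher share lay between 11.8% and 17.9% and the lower share between 11.5% and 19.2%. Genomic positions were not used here, so the order is that of the numbers.

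Of the 10 lowest ratios 4 belonged to a stretch of 5 successive numbers, BGIOSGA014273 to BGIOSGA014277, and BGIOSGA014275 completes it. BGIOSGA014275 was singled out after its values were seen. In DC90 BGIOSGA014273 was at 207 FPKM before and 2.77 after chilling, BGIOSGA014274 at 343 and 7.16, BGIOSGA014275 at 443 and 36.6 and BGIOSGA014276 at 194 and 2.90. The differences were 74.7-fold, 47.8-fold, 12.1-fold and 66.9-fold, and that of BGIOSGA014277 was the largest of the 5. Their summed FPKM went from 1632 to 51.2 in DC90 and from 1152 to 77.0 in 9311. The median log2 ratio was -5.64 in DC90 and -4.94 in 9311. Apart from BGIOSGA014273 with 444 bases, the recovered coding lengths were 261 to 264 bases. Members of like length in succession may be near-identical copies. How reads that match several copies were counted is not given in the sources used here, so single values and their sum are both uncertain.

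A longer stretch of lowered members ran from BGIOSGA031783 to BGIOSGA031807. It holds 1 of the 2 longest lower runs, 7 members from BGIOSGA031783 to BGIOSGA031790, and was widened after the values were seen. Of its 25 identifiers 20 were members, and 18 of these were at least 2-fold lower in DC90 while 0 were higher. Among all members 15.3% were lower and 14.5% higher. The 2 others of the 20 were BGIOSGA031793, at 40.6 and 21.2 FPKM, and BGIOSGA031799, at 34.4 and 34.8. Of the 18, BGIOSGA031803 rested on 3 reads at 0 h and 0 reads at 36 h. The most abundant, BGIOSGA031798, was at 169 before and 13.3 after chilling, 12.8-fold less, with bounds of 10.2 and 16.2. BGIOSGA031788 was at 73.4 and 18.4, BGIOSGA031787 at 70.2 and 15.2, and BGIOSGA031786 at 63.2 and 11.8.

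Recovered coding lengths between 555 and 585 bases were shared by 14 of the 20 members, 13 of them lower, and the caution on near-identical copies applies here too. The summed FPKM of the stretch went from 648 to 139 in DC90 and from 718 to 272 in 9311. In 9311, 15 of the 20 were at least 2-fold lower, where 18.2% of identifiers were. The median log2 ratio was -1.62 there against -2.13 in DC90. BGIOSGA031790 went opposite ways, at 7.34 and 1.79 FPKM in DC90 and 8.15 and 14.2 in 9311.

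The other lower run of 7 members, from BGIOSGA018530 to BGIOSGA018537, was less deep. Its log2 ratios in DC90 lay between -2.55 and -1.04, led by BGIOSGA018531 at 44.1 FPKM before and 6.70 after chilling. BGIOSGA018537 was at 10.8 and 1.61 in DC90 and at 24.3 and 15.9 in 9311. Of the 7 members, 5 were at least 2-fold lower in 9311, where 18.2% of identifiers were. Recovered coding lengths ranged from 381 to 1644 bases.

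The longest run of raised members had 6, from BGIOSGA028011 to BGIOSGA028016. BGIOSGA028013 was at 5.64 FPKM before and 211 after chilling, 37.4-fold higher with an interval of 24.0 to 61.5. BGIOSGA028011 was at 1.88 and 56.5, BGIOSGA028014 at 2.59 and 53.2 and BGIOSGA028015 at 2.55 and 68.3. BGIOSGA028012 had 0 reads before and 3 reads after chilling, so no fold is given. These 5 had recovered coding lengths of 231 to 318 bases, and the caution on copies applies. BGIOSGA028016, with 1482 bases, was at 24.3 and 65.0, 2.68-fold higher. The sum over the 5 short ones went from 12.7 to 390 FPKM in DC90 and from 11.1 to 779 in 9311, where their median log2 ratio was 5.35 against 4.28 in DC90.

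**Figure D5:**
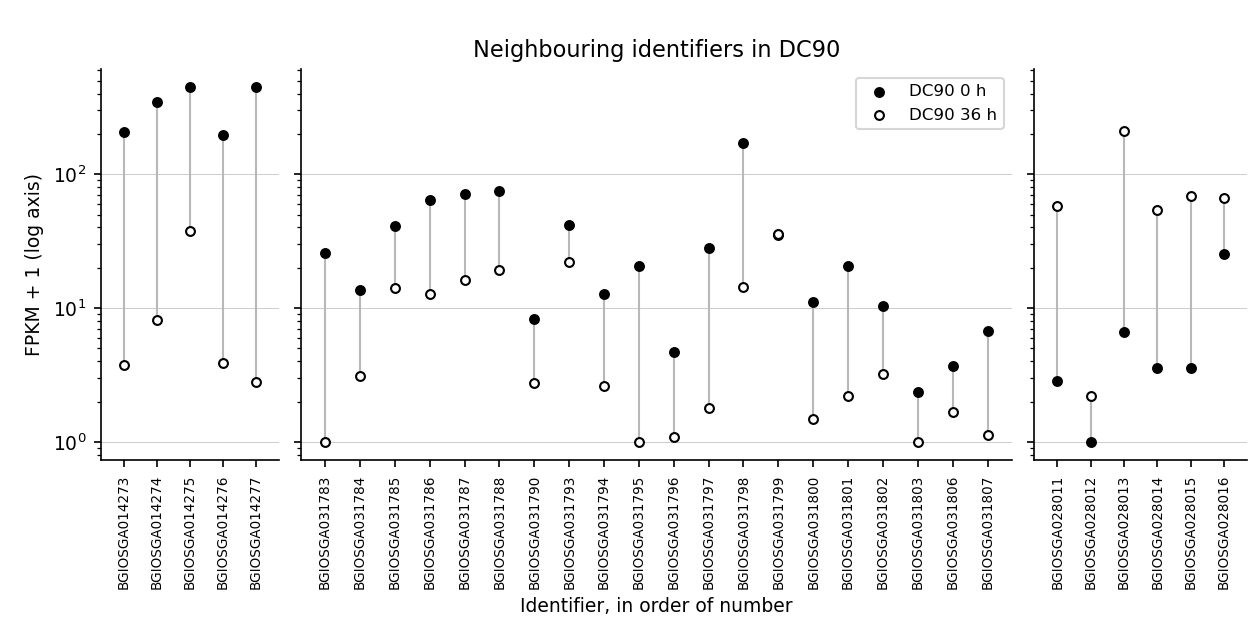
FPKM + 1 (log axis) in DC90 at 0 h (filled points) and 36 h (open points) for the members of 3 stretches of successive identifier numbers. All 5 members on the left and 18 of the 20 in the middle are at least 2-fold lower at 36 h, against 15.3% of all members. All 6 on the right are at least 2-fold higher, against 14.5%. The stretches were chosen by these same DC90 values, the right one as the longest run of higher members. The counts therefore follow at least in part from the choice.

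The larger a difference in DC90, the more often 9311 passed the 2-fold limit in the same direction. Of members raised 2-fold to 4-fold in DC90, 67.7% were raised in 9311 too, of those raised 4-fold to 8-fold 96.8%, and of the 236 raised at least 8-fold 99.2%. For lowered members the shares were 73.0%, 93.0% and, of 164 lowered at least 8-fold, 99.4%. The background in 9311 was 16.1% higher and 18.2% lower. Fewer of the members at 8-fold or more in DC90 also reached 8-fold in 9311, a stricter limit than 2-fold. Of the 236 members raised at least 8-fold in DC90, 201 were raised at least 8-fold in 9311, where 1.6% of identifiers were, and their log2 ratios had medians of 4.10 in 9311 and 3.70 in DC90. Of the 164 lowered at least 8-fold in DC90, 116 were lowered as much in 9311, where 1.03% of identifiers were, with medians of -3.63 and -3.59. Lists chosen by their DC90 values are read here in libraries that the choice did not use, and the difference between the lines was not tested. Both lines were sampled at the same times, so what they share includes any change with age or hour.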

How the data were processed

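RNA of whole seedlings was mixed from 3 replicates per line and time (3 µg into each library preparation), sequenced on an Illumina HiSeq and deposited as 1 table of FPKM values by the authors, per the labels. The submitters' processing notes name HTSeq 0.6.1. For the aligner, build and annotation the status is "not given in the sources used here". Titles tied columns to samples.

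FPKM is reads divided by length and library total, so totals, reads and lengths were recovered from the value steps, as the smallest whole numbers within 1e-07 for 34043 of 34043 identifiers above 0. Their sum was 97.6% to 97.7% of the totals, and 98.8% of BGIOSGA lengths were multiples of 3, hence "coding length". Reads or lengths that lost a common factor are too small. Counting intervals and bounds are exact Clopper-Pearson (95%), from the reads in the 2 libraries compared, and include counting error only, PCR reads not being independent molecules. "At least" marks a ratio with a library at 0 set at 3 reads and no counting error added for its partner.

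The size rule, limits and alternatives (pseudocount 0.1, no filter or FPKM of at least 5, median-of-ratios factors, equal FPKM sums, EPlOING identifiers, at least 20 reads, 4-fold) were set with earlier results of these data known, as were the members. Named are the 10 highest and 10 lowest ratios where the higher library had an FPKM of 10 or more, the 5 largest gains and losses, the 5 most abundant per time, the 3 highest switched on and off, members at the limits and the longest runs. The RefSeq gene table (ASM3414082v1) matched 0 of the table's identifiers, so no gene list was used. Scripts ran in Python 3.11.15 with numpy 2.4.6, pandas 2.3.3 and scipy 1.17.1 and were tested on simulated data.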

Additional observations from a re-analysis of the deposited data

Results flagged for a closer look

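After chilling, 14 of the 23341 members were at least 2-fold in one direction in DC90 and at least 2-fold in the other in 9311. This difference between the lines was not tested, since each line and time has 1 library. In DC90 29.8% of members were called in either direction, and in 9311 16.1% of identifiers were higher and 18.2% lower. At least 20 reads in some library of either line stood behind 6 of the 14, and 100 reads behind 2. The other line can rest on fewer reads. BGIOSGA037274, 1 of the 6, had 5 reads at 0 h and 0 at 36 h in 9311, with a counting interval of 0 to 1.18 that includes equality. The 2 with 100 reads were chosen after their values were seen. They were BGIOSGA014396, at 37.96 and 16.2 FPKM in DC90 and 28.6 and 85.4 in 9311, and BGIOSGA011686, at 15.8 and 6.58 in DC90 and 6.88 and 31.6 in 9311. Both were lower at 36 h in DC90, as were 8 of the 14.

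Of the members named above, 4 lay on opposite sides of equality in the lines, which was not tested. The log2 ratio of BGIOSGA031790 was -1.58 in DC90 against 0.73 in 9311, and that of BGIOSGA037257 was -0.299 against 0.09. For BGIOSGA031793 it was -0.909 against 0.65, and for BGIOSGA031799 it was 0.0168 against -0.15. The plain DC90 ratio of BGIOSGA031799 had a counting interval of 0.887 to 1.15, which includes equality. Median-of-ratios factors shift log2 ratios by -0.059 before the pseudocount, more than its DC90 value, so its side of equality in DC90 is not settled.

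Outside the members, 311 EPlOING identifiers with FPKM of at least 1 in DC90 reached 20 reads in either library, and of these 122 were at least 2-fold higher at 36 h than at 0 h and 41 lower. Over all 2809 EPlOING identifiers with FPKM of at least 1, 1299 were higher and 575 lower, with a median of 3 reads in the higher library.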

How the results depend on the processing

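No paired analysis was possible because each group has 1 library, and no replicate could be left out. The counts of 3374 higher and 3575 lower members stayed within 1.5 times under the alternatives of pseudocount, filter, scaling, depth and identifier kind, at 2819 to 4673 and 2781 to 4459. At 4-fold they were 767 and 817. The median log2 ratio was -0.0389 under median-of-ratios scaling, 0.038 where FPKM had to reach 5, 0.12 with equal FPKM sums and 0.0608 with EPlOING identifiers. With pseudocount 0.1, median-of-ratios factors and equal FPKM sums, in this order, higher members held 22.3%, 20.6% and 25.4% of the FPKM at 36 h, and lower members 29.7%, 30.6% and 26.8% at 0 h. A high limit of 10 FPKM left 20 members switched on and 7 switched off. In the settings added after the data were seen, the lowered share of the shortest quartile was 25.4%, 22.7% and 19.3% in the same order, and that of the longest 12.3% with pseudocount 0.1 and 7.04% with equal FPKM sums. Equal FPKM sums made 2 of the 100 most abundant at 0 h higher. None of the 59 members named by the rules given above changed direction under these 3 settings. At most 3 of the 59 changed sides of the 2-fold limit, among them those named for lying next to it. Members described only for their stretch, such as BGIOSGA031793 and BGIOSGA031799, are not among the 59. The log2 ratio of BGIOSGA031799, 0.0168, is smaller in size than the shift of -0.059 by median-of-ratios factors, so its direction depends on scaling. The causes of these shifts were not tested. Without replicate libraries, depth limits only the counting error.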
